A study of Mus musculus with 4 samples.

Results

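The 44 forkhead transcription factor genes of the deposited transcript table were compared between control and Isl1-/- mouse cardiac progenitor cells (CPCs). A gene was a member if its symbol read Fox, then a class letter from a to s and a number, with or without a final a or b, and 44 of 20701 genes did so. The table lists transcripts, and for the 8 members with several entries the entry with most counts over the 4 libraries stood for the gene. Expression was measured by RNA-Seq in 4 libraries, 2 labelled control and 2 labelled Isl1_KO. All 4 came from E14 Tg(Nkx2-5-EmGFP) mouse embryonic stem (ES) cells, a line with a green fluorescent reporter of the cardiac gene Nkx2-5, which had been kept on mitomycin-treated embryonic fibroblast feeders. The cells were differentiated, and those with reporter signal were sorted at day 5. The Isl1_KO cells were in addition Isl1-/-, made by CRISPR/Cas9 with 2 guide RNAs. Per the extraction notes, each group was made of 2 different clones of 1 line. The tests fit a shared spread to both groups, although the control libraries differed from each other far less than the Isl1_KO libraries did. Whether the control pair holds the full spread between clones cannot be told from these data, so the p-values may not reflect that spread in both groups. An effect of a single clone on its library cannot be told apart from replicate spread.

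Forkhead factors bind DNA through a winged-helix domain and are sorted into lettered classes by its sequence. FOXA and FOXH factors act early, in germ layer formation, where FOXA proteins can open closed chromatin and FOXH1 is the DNA-binding partner of SMAD proteins in Nodal signalling. FOXC and FOXF factors pattern mesoderm and the vessels and have roles in the second heart field, the Isl1-positive progenitor pool that builds the outflow tract and right ventricle. FOXO factors are held in the cytoplasm by insulin signalling, FOXM1 drives the genes of cell division, FOXP and FOXK factors mostly repress, and FOXJ1 switches on the motile cilium. The question put to the data was which members were expressed in these CPCs and which differed when Isl1 was lost.

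Isl1 itself, the LIM-homeodomain gene that was edited, was counted 309 and 326 times in the control libraries and 17 and 24 times in the Isl1_KO libraries. It was 21.0-fold lower in Isl1_KO (log2 fold change -4.39, SE 0.21, adjusted p = 0.00277). Every adjusted p below comes from the quasi-likelihood F test of edgeR with Benjamini-Hochberg adjustment over 12715 genes, unless another tool is named. The libraries held 8821517 and 9147425 counts in control and 13186109 and 11388333 in Isl1_KO. The Isl1_KO pair was far less alike than the control pair, with a biological coefficient of variation of 16.3% against 1.26%. Of 15 tested markers of cardiac progenitors 9 were called and all 9 were lower in Isl1_KO, where 1.94% of all tested genes were called lower. These 9 include Nkx2-5 and also Isl1, the edited gene. The summed level of that list was 2572 and 2594 counts-per-million (CPM) in control and 1997 and 1793 in Isl1_KO. Of the 47 tested markers of other cell types edgeR called 0 (18 at an unadjusted p under 0.05), DESeq2 4 and limma-voom 13. Over all genes edgeR called 2.45% (23.3% at an unadjusted p under 0.05), DESeq2 3.57% and limma-voom 6.82%. The sums of some of these marker lists were lowest in the second Isl1_KO library. The 7 smooth muscle markers summed to 2640 and 2652 CPM in control, 2237 in the first and 775 in the second Isl1_KO library, and the 8 fibroblast and feeder markers to 2491 and 2443, then 1744 and 694. The 8 endothelial markers summed to 221 and 224, then 207 and 143, and the 8 blood markers to 452 and 463, then 311 and 189. The blood sum was carried by the globin genes Hbb-bh1 and Hba-x, at log2 fold changes of -1.51 (SE 0.58) and -2.13 (SE 0.86), while the other 6 blood markers, such as the blood factors Tal1 (0.93, SE 0.22) and Gata1 (0.85, SE 0.16), had values above 0, and the median of the 8 was 0.70. Pluripotency markers summed to 131 and 129 CPM, then 79.8 and 104. Most of that sum in control came from Klf4 (60.8 and 56.1 CPM, then 50.5 and 33.8) and Tdgf1 (39.6 and 40.4, then 3.31 and 20.7). The 6 tested pluripotency markers had a median log2 fold change of -0.04, with 4 below 0 and 2 above. Endoderm markers summed to 194 and 195, then 179 and 178, and neural markers to 251 and 250, then 274 and 180, with Neurog1 and Olig2 at 0. The part of these differences in the results on forkhead genes was not tested, and fewer cells of a type cannot be told apart from less RNA per cell in bulk libraries.

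Most forkhead RNA in the CPCs came from a few members. Of the 44 members, 39 had at least 1 count and 21 had a mean of over 1 RPKM, the deposited length-scaled level, while 7 were over 10. The 5 highest were Foxo4, Foxh1, Foxf1, Foxm1 and Foxp4, which held 65.7% and 64.8% of the summed forkhead RPKM in control and 71.3% and 72.0% in Isl1_KO. That sum was 249 and 248 RPKM in control and 286 and 325 in Isl1_KO. Both Isl1_KO libraries were thus above both control libraries in total forkhead RNA per length, and the second Isl1_KO library was highest. The next members by level were Foxk2 at a mean of 17.1 RPKM over the 4 libraries, Foxk1 at 12.4, Foxn3 at 8.89 and Foxj3 at 8.51.

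**Figure D1:**
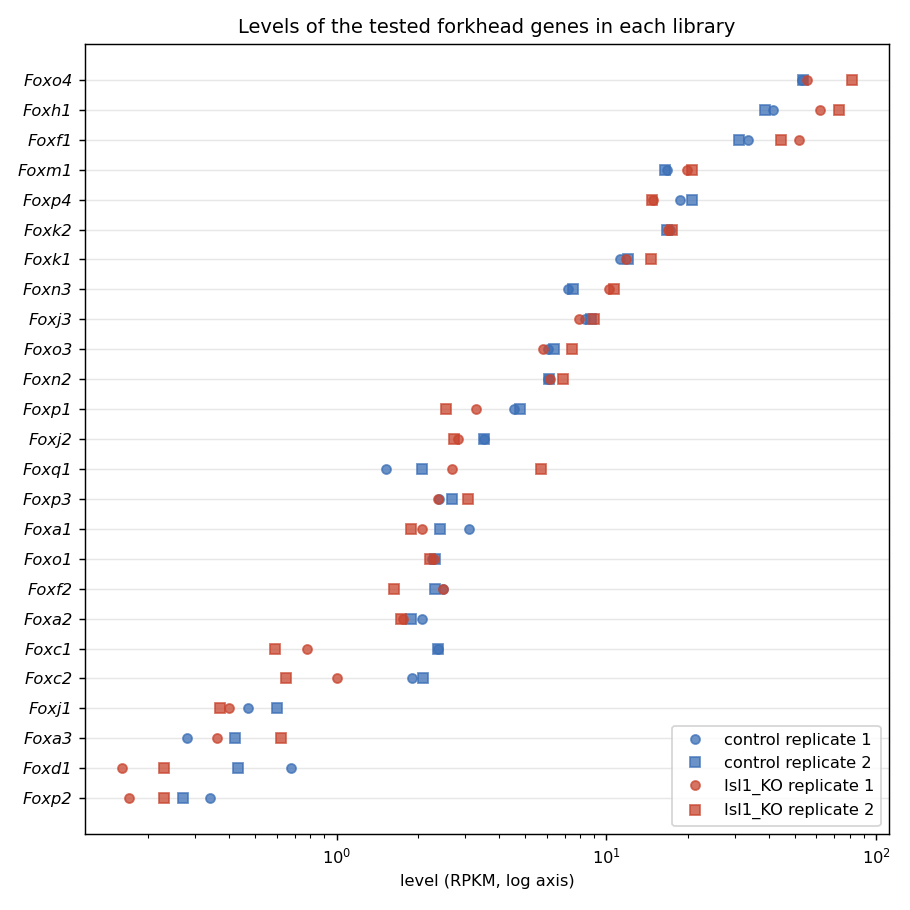
Level of the tested forkhead genes described here, in each library, in RPKM on a log axis, with control libraries in blue, Isl1_KO libraries in red, replicate 1 as circles and replicate 2 as squares. The genes range from Foxo4, between 53.1 and 81.5 RPKM, to Foxp2, between 0.17 and 0.34 RPKM, and the groups stand well apart for Foxc1, at 2.38 RPKM in both control libraries against 0.78 and 0.59.

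Loss of Isl1 was accompanied by lower Foxc1 and higher Foxh1. In all 3 members, 11.5% of the 26 that passed the filter on low counts, were called at an adjusted p under 0.05, against 2.45% of all 12715 tested genes. Of the members 2 were lower, a direction in which 1.94% of all genes were called, and 1 was higher, a direction taken by 0.503%. At the criteria of the study, a DESeq2 fold change over 1.5 with an unadjusted p under 0.05, 7 of 39 members were selected (17.9%, against 5.89% of 16855 genes). Foxc1, Foxc2, Foxd1 and Foxp1 were among the 5 on the lower side (4.57% of all genes) and Foxh1 and Foxq1 the 2 on the higher side (1.32% of all genes). With DESeq2 and an adjusted p, the rule that called 3.57% of all genes, 7 members passed, among them Foxc1, Foxc2, Foxf1, Foxh1, Foxp1 and Foxp4. With limma-voom, which called 6.82% of all genes, these 7 and Foxn3 passed. The Isl1_KO libraries lay on 1 side of both control libraries for 18 of 26 members, 11 lower and 7 higher. Over all tested genes this held for 58.1%, with 29% lower and 29.1% higher, so such separation was common in the table. An unadjusted p under 0.05 was found for 13 of 26 members, against 23.3% of all genes. The median log2 fold change of the 26 members was -0.04 and that of all tested genes 0.00, while the median of its absolute value was 0.43 among the members and 0.18 over all genes. These counts rest on the controls as a pair. Without the first or the second control library edgeR called 0 members (7 and 11 at an unadjusted p under 0.05), while only 27 and 29 genes were called in the whole table.

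**Figure D2:**
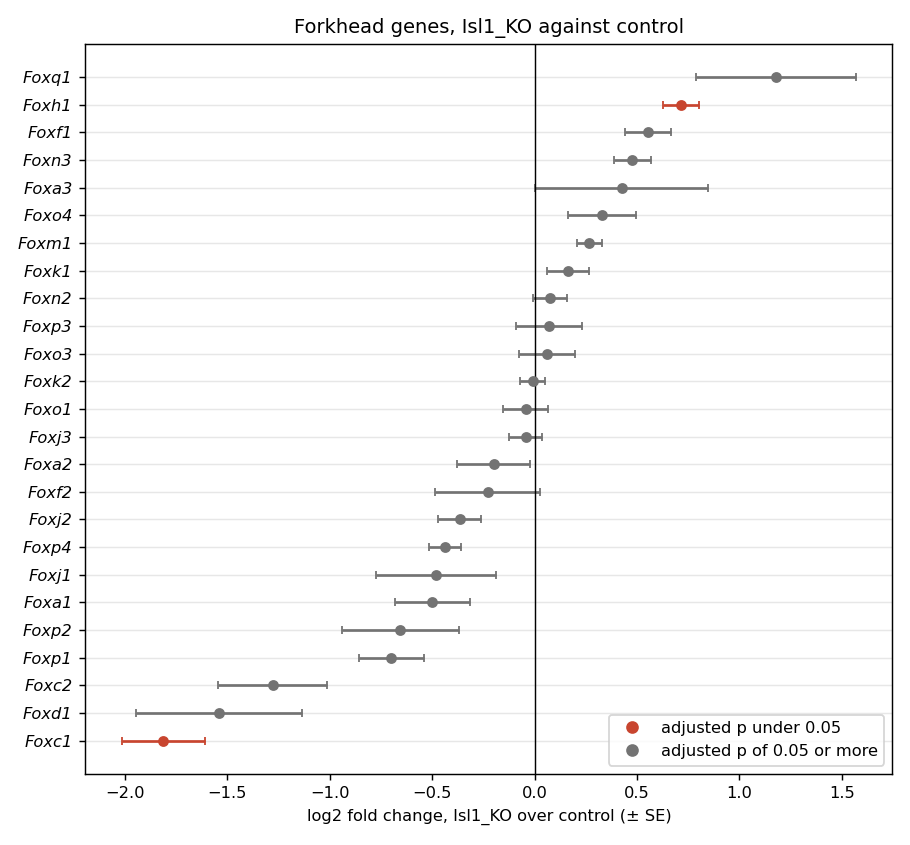
Log2 fold change of the tested forkhead genes described here, Isl1_KO over control, with its standard error as a bar, red where the adjusted p was under 0.05. Foxc1 lies at the lower end at -1.81, Foxh1 lies at 0.71, and Foxq1 has a larger difference than Foxh1, 1.18, with a wider error.

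Among the FOXC genes, which act in somites, pharyngeal mesoderm and vessels, Foxc1 fell. Foxc1 (chromosome 13, 31898515 to 31902504, plus strand, mm9) gave 148 and 154 control counts against 72 and 46 in Isl1_KO, or 16.8 ± 0.0357 CPM against 4.76 ± 1.09 (SD, n = 2). Both Isl1_KO libraries were far under the control libraries, which were nearly equal. Foxc1 was 3.51-fold lower in Isl1_KO (log2 fold change -1.81, SE 0.20, adjusted p = 0.0228). Its paralog Foxc2 (chromosome 8, 123640071 to 123642792, plus strand) gave 81 and 92 control counts against 63 and 35 in Isl1_KO, or 9.63 ± 0.617 CPM against 3.94 ± 1.28 (SD, n = 2). These groups did not overlap either, but the Isl1_KO libraries differed more from each other, and with edgeR Foxc2 did not pass (log2 fold change -1.28, SE 0.27, adjusted p = 0.0829), while with DESeq2 it did (adjusted p = 0.0457). Together the FOXC genes had 4.28 and 4.47 RPKM in control and 1.78 and 1.24 in Isl1_KO.

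The bases before the start site of Foxc1 are shown beside those of Foxf2, the next forkhead gene on the same chromosome, because Foxc1 fell and the Foxf2 groups overlapped. Each is the 250 bases upstream of the RefSeq start on GRCm38.p6, plus strand, Foxc1 at chr13:31806396-31806645 and Foxf2 at chr13:31625566-31625815, with the GC box GGGCGG in capitals. The sequences read 5′ to 3′.
Foxc1: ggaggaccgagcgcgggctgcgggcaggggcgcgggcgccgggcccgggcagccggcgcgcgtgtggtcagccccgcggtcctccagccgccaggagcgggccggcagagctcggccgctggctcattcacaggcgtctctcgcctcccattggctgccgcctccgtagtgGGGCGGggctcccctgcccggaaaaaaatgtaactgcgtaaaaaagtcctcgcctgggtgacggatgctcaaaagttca
Foxf2: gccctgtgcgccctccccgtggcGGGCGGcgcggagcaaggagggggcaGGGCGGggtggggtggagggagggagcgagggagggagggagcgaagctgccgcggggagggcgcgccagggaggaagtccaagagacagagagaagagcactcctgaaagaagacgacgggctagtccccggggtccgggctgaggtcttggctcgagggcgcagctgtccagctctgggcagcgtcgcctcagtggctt
Both windows are rich in G and C, 70.8% for Foxc1 and 71.6% for Foxf2, where the median of all 32851 promoters of the table was 52.4%. The letters GGGCGG, sought on both strands, were in both, and in 23 of the 33 promoters of 28 members that the table holds, against 32.7% of all promoters. Neither window held TGTTTAC, a core forkhead motif found in 3.17% of all promoters on either strand, or CTAATG, a homeodomain motif of the LIM type found in 6.36%. Among the members only the promoter of Foxa1 held TGTTTAC, and those of Foxi1 and Foxp3 held CTAATG. A match is a description of the letters in the window. Among the members without an entry are Foxb1, Foxc2, Foxe1, Foxf1, Foxh1, Foxj1, Foxk1, Foxl1, Foxm1, Foxn2, Foxo4, Foxo6, Foxp2, Foxq1 and Foxs1.

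Foxd1, known from kidney stroma and retina, was low and did not pass. It had 26 and 17 control counts against 9 and 11 in Isl1_KO, or 2.41 ± 0.772 CPM against 0.823 ± 0.186 (SD, n = 2). The groups did not overlap, but the control libraries differed from each other as well (log2 fold change -1.54, SE 0.40, adjusted p = 0.118).

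Foxh1, the Nodal pathway factor, rose. Foxh1 (chromosome 15, 76498714 to 76500378, minus strand) gave 883 and 857 control counts against 1945 and 1946 in Isl1_KO, or 97.0 ± 4.57 CPM against 159 ± 13.7 (SD, n = 2). Both Isl1_KO libraries were above both control libraries, and by mean RPKM Foxh1 was the second highest forkhead gene in both groups, after Foxo4. It was 1.64-fold higher in Isl1_KO (log2 fold change 0.71, SE 0.09, adjusted p = 0.0306), a difference that was not called when tested against 1.5-fold. Genes that act with FOXH1 did not move as a group. Of 14 tested genes of Nodal signalling edgeR and DESeq2 called 0 and limma-voom 1, and 1 had an unadjusted p under 0.05 with edgeR. Their median log2 fold change was 0.09, with 8 above 0 and 6 below, where 49.6% of all tested genes were above 0. Smad4 and Smad3, which carry the signal with FOXH1 and are among the 3 with the highest level, had log2 fold changes of -0.08 (SE 0.07) and -0.11 (SE 0.09). Eomes, Mixl1 and Tdgf1, chosen after their values were seen, show how unlike the Isl1_KO clones were in this pathway. Eomes, a T-box factor of early mesoderm and endoderm, had 121 and 111 control counts against 237 and 1015 in Isl1_KO (adjusted p = 0.196). Mixl1, a homeobox gene of the primitive streak, had 31 and 42 against 57 and 285 (adjusted p = 0.272). Tdgf1, the Nodal co-receptor Cripto, had 349 and 369 against 43 and 239 (adjusted p = 0.223). In Eomes and Mixl1 the second Isl1_KO library alone was far above the rest, whereas for Foxh1 both Isl1_KO libraries were high.

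Forkhead genes that lie next to each other on the chromosome did not all have log2 fold changes of the same sign. Of those tested edgeR called only Foxc1, so the opposite signs rest on differences that did not pass. On chromosome 8 the start of Foxc2 lies 31.8 kb from that of Foxf1, with Mthfsd between them, and on chromosome 13 Foxq1, Foxf2 and Foxc1 follow each other over 248 kb. Foxf1, a mesenchymal and vascular factor of the lung and gut (123608286 to 123610851, plus strand), gave 1267 and 1215 control counts against 2904 and 2109 in Isl1_KO, or 138 ± 7.69 CPM against 203 ± 28.5 (SD, n = 2). The Isl1_KO libraries were both higher, and Foxf1 did not pass with edgeR (log2 fold change 0.55, SE 0.11, adjusted p = 0.0813) but did with DESeq2 (adjusted p = 0.0113). Foxc2, in the same cluster, had the opposite sign, and Mthfsd, a gene of folate metabolism, had a log2 fold change of -0.02 (SE 0.13). Foxl1, 43.6 kb from Foxf1, had only 5, 4, 5 and 1 counts. On chromosome 13, Foxq1, an epithelial factor and mucin regulator, had 67 and 94 control counts against 173 and 316 in Isl1_KO, or 8.95 ± 1.90 CPM against 20.4 ± 9.98 (SD, n = 2). The Isl1_KO libraries were higher but differed 2.06-fold from each other, and Foxq1 did not pass (log2 fold change 1.18, SE 0.39, adjusted p = 0.170). An exon of Foxq1 overlaps A530084C06Rik on the opposite strand, and since both strands were counted together their reads cannot be told apart. Foxf2, 67.6 kb further on, had 91 and 89 control counts against 136 and 76 in Isl1_KO, or 10.0 ± 0.418 CPM against 8.52 ± 2.73 (SD, n = 2). Its groups overlapped (log2 fold change -0.23, SE 0.26, adjusted p = 0.633). Foxc1, the last gene of the row, is the one that fell.

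**Figure D3:**
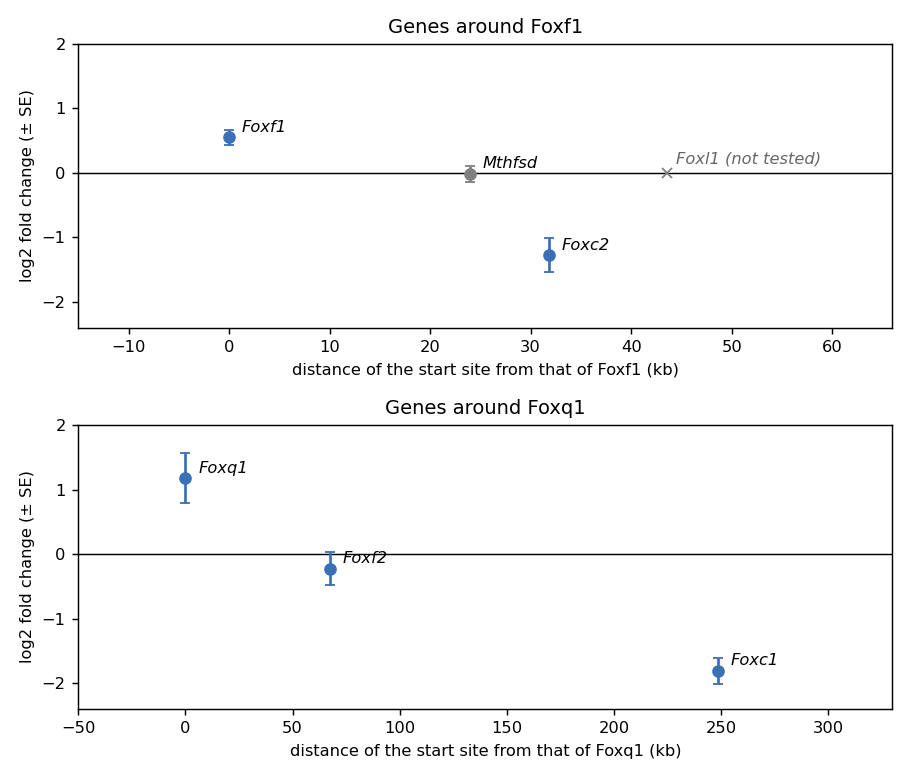
Log2 fold change with its standard error against the distance of each gene's start from that of Foxf1 (top) or Foxq1 (bottom), in kb, with forkhead genes in blue and Mthfsd in grey, and a cross at 0 for Foxl1, which was too low to test. In both rows the first gene lies above 0 (Foxf1 at 0.55, Foxq1 at 1.18) and the FOXC gene lies below it (Foxc2 at -1.28, Foxc1 at -1.81).

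FOXF genes and FOXC genes are often studied beside Hedgehog signalling, and in that pathway the ligand gene Shh and a target fell. Of 13 tested Hedgehog genes edgeR called 2, both lower, where 1.94% of all tested genes were called lower. DESeq2 and limma-voom also called 2 each, where they called 3.57% and 6.82% of all genes. With edgeR 9 of the 13 had an unadjusted p under 0.05, 7 lower and 2 higher, against 23.3% of all genes. A log2 fold change below 0 was found for 10 of the 13 (median -0.29), where 49.6% of all tested genes were above 0. Shh, a ligand, had 60 and 56 control counts against 5 and 0 in Isl1_KO. From the summed counts, 116 against 5, it was 31.7 times lower, with an exact 95% counting interval of 13.2 to 99.5 (adjusted p = 0.0342). Gli1, a transcription factor whose own gene is switched on by the pathway, had 341 and 355 against 249 and 169 counts and fell by 1.19 on the log2 scale (SE 0.15, adjusted p = 0.0332). Ihh, another Hedgehog ligand, and Hhip, which binds such ligands, were chosen after their values were seen. Ihh had 49 and 58 against 52 and 29 counts (log2 fold change -0.86, SE 0.29, adjusted p = 0.172). Hhip had 44 and 48 against 20 and 25 counts (log2 fold change -1.47, SE 0.27, adjusted p = 0.0679). Ptch1, the receptor, was much more abundant at 4173 and 4247 against 5548 and 4534 counts, with a log2 fold change of -0.19 (SE 0.07, adjusted p = 0.196). Foxf1 was thus on the higher side in the same libraries in which Shh and Gli1 were lower.

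In each list tied to FOXC and FOXA factors edgeR called at most 1 gene, where it called 2.45% of all tested genes. Over all genes DESeq2 called 3.57% and limma-voom 6.82%, and 23.3% had an unadjusted p under 0.05 with edgeR. In the list of paraxial and pharyngeal mesoderm 7 of 16 genes were abundant enough to test and 1 was called, lower in Isl1_KO. Among 17 endothelial and Notch genes edgeR called 0, DESeq2 3 and limma-voom 3, with 7 at an unadjusted p under 0.05, and the median log2 fold change was -0.22. The 3 highest were Kdr (log2 fold change 0.11, SE 0.19), Etv2 (0.33, SE 0.16) and Pecam1 (0.26, SE 0.15), but 10 of the 17 had a log2 fold change below 0. The 3 genes called by DESeq2 went both ways, the receptor gene Tek lower (log2 fold change -1.18, SE 0.33 in edgeR) and Flt1 (0.63, SE 0.14) and Cxcr4 (1.22, SE 0.29) higher. Dll4, a Notch ligand chosen after its values were seen, had 17 and 20 control counts against 10 and 3 (log2 fold change -1.94, SE 0.50, adjusted p = 0.117). In the endoderm list, the field of FOXA factors, 1 of 16 was called, Gata6, a zinc finger factor of endoderm and heart. It is also 1 of the 9 lower cardiac progenitor markers counted above. It had 1314 and 1359 control counts against 1079 and 738 in Isl1_KO, 2.02-fold lower (log2 fold change -1.02, SE 0.13, adjusted p = 0.0332).

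The FOXA genes were low and did not pass. Foxa1 was at 3.10 and 2.42 RPKM in control and 2.08 and 1.88 in Isl1_KO (log2 fold change -0.50, SE 0.18, adjusted p = 0.195). Foxa2 was at 2.08 and 1.88 against 1.76 and 1.74 (log2 fold change -0.20, SE 0.18, adjusted p = 0.544), and Foxa3 at 0.28 and 0.42 against 0.36 and 0.62. Only the Foxa3 groups overlapped among these 3 genes.

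Foxo4, which acts under insulin and stress signals, had the highest mean level of the family, although Foxh1 was above it in the first Isl1_KO library. Its RPKM was 53.1 and 53.6 in control and 55.5 and 81.5 in Isl1_KO, so the first Isl1_KO library was near control and the second well above it. The log2 fold change was 0.33 (SE 0.17, adjusted p = 0.304). Foxo1, at 2.26 and 2.31 against 2.29 and 2.22 RPKM, had a log2 fold change of -0.04 with a 95% interval of -0.26 to 0.17, and Foxo3, at 6.06 and 6.40 against 5.80 and 7.47 RPKM, one of 0.06 with an interval of -0.21 to 0.33. Both had overlapping groups, and exons of Foxo1 overlap RP24-337A16.1 on the opposite strand. Of 24 targets of FOXO factors and genes of insulin and PI3K signalling edgeR called 0, DESeq2 1 and limma-voom 2, with a median log2 fold change of -0.10. With edgeR 5 of these 24 genes had an unadjusted p under 0.05, against 23.3% of all genes. The 3 highest of them were Klf6 (log2 fold change 0.04, SE 0.08), Akt1 (-0.22, SE 0.15) and Cat (0.13, SE 0.06).

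Foxm1, the factor of the division programme, differed little in size but evenly between clones. It had 1143 and 1164 control counts against 2010 and 1786 in Isl1_KO, or 129 ± 1.68 CPM against 155 ± 0.315 (SD, n = 2). Both Isl1_KO libraries were higher by nearly the same amount, 1.20-fold on average, and the gene did not pass (log2 fold change 0.27, SE 0.06, adjusted p = 0.0942). Its exons overlap those of 4933413G19Rik on the same strand. All 23 tested genes of the FOXM1 and mitosis list had a log2 fold change above 0, between 0.08 and 0.45 with a median of 0.31, where 49.6% of all tested genes were above 0. None of them passed with edgeR, although 17 had an unadjusted p under 0.05, against 23.3% of all genes. DESeq2 called 1 (3.57% of all genes) and limma-voom 6 (6.82% of all genes). Top2a, a topoisomerase of mitotic chromosomes, had 6545 and 6853 control counts against 11626 and 11087 in Isl1_KO (log2 fold change 0.31, SE 0.07, adjusted p = 0.0926). Ccna2, cyclin A, had 2426 and 2558 against 4573 and 4654 (log2 fold change 0.44, SE 0.09, adjusted p = 0.0762). Kif20a, a mitotic kinesin, had 2221 and 2223 against 3973 and 3891 (log2 fold change 0.38, SE 0.08, adjusted p = 0.0813). For each of these 3 genes the groups did not overlap after scaling for library size.

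**Figure D4:**
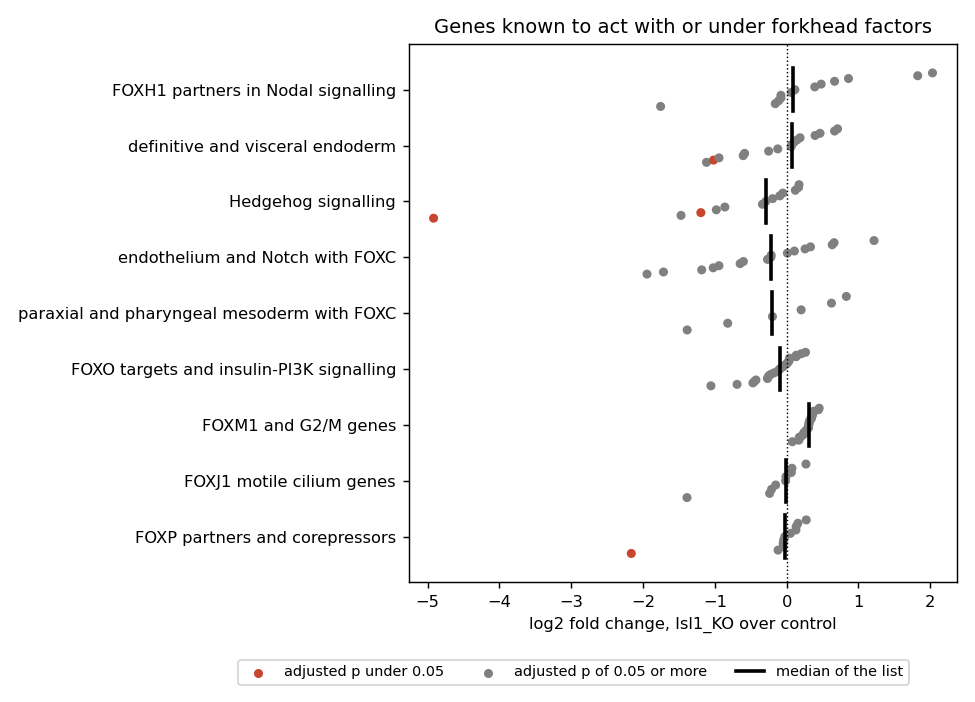
Log2 fold changes of tested genes in 9 lists of genes known to act with or under forkhead factors, with red points where the adjusted p was under 0.05 and a black bar at each list's median. All FOXM1 and mitosis genes lie right of 0 around a median of 0.31, while the other lists spread to both sides and Shh lies far left in the Hedgehog list.

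In the FOXP class, repressors with roles in heart, lung and brain, 3 of 4 genes were on the lower side. Foxp4 had 1177 and 1344 control counts against 1379 and 1167 in Isl1_KO, or 140 ± 9.51 CPM against 104 ± 3.36 (SD, n = 2). The groups did not overlap, with a small and even difference that did not pass with edgeR (log2 fold change -0.44, SE 0.08, adjusted p = 0.0628) and did with DESeq2 (adjusted p = 0.0476). Foxp1 had 534 and 586 control counts against 573 and 377 in Isl1_KO, or 62.4 ± 2.48 CPM against 38.4 ± 8.02 (SD, n = 2). It was lower in both Isl1_KO libraries, more so in the second, and again passed with DESeq2 (adjusted p = 0.0216) and not with edgeR (log2 fold change -0.70, SE 0.16, adjusted p = 0.0914). Its exons overlap those of Eif4e3 on the same strand. Foxp2 was lower and rare at 36 and 30 against 26 and 31 counts (log2 fold change -0.66, SE 0.29, adjusted p = 0.249). Foxp3, the factor of regulatory T cells, was listed at 2.40 and 2.67 RPKM in control and 2.37 and 3.07 in Isl1_KO, but its exons overlap those of Ccdc22 and Ppp1r3f on the opposite strand, and with counting on both strands these reads cannot be told apart. Of 11 tested FOXP partners and corepressors edgeR called 1, Nkx2-5, where it called 2.45% of all tested genes. Nkx2-5 gave 186 and 181 control counts against 62 and 50 in Isl1_KO (log2 fold change -2.16, SE 0.15, adjusted p = 0.00703). It is the gene of the reporter used for sorting and also 1 of the 9 lower cardiac progenitor markers counted above. The other genes of this list, among them all the corepressors, were not called.

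The remaining tested members were mostly broadly expressed factors with small differences. Foxk2, which acts in autophagy and metabolism, gave the steadiest values of the abundant members, 17.2 and 16.7 RPKM in control and 16.9 and 17.4 in Isl1_KO, with a log2 fold change of -0.01 and a 95% interval of -0.13 to 0.11, though its exons overlap those of Narf on the same strand. Foxk1, its paralog, had 11.2 and 12.0 against 11.9 and 14.7 RPKM (log2 fold change 0.16, SE 0.10). Foxj3 had overlapping groups at 7.95 to 8.96 RPKM. Foxn2 was at 6.10 and 6.13 against 6.20 and 6.92 RPKM (log2 fold change 0.07, SE 0.08). Foxn3, a checkpoint factor, stood apart, at 7.20 and 7.51 RPKM in control and 10.2 and 10.6 in Isl1_KO (log2 fold change 0.48, SE 0.09, adjusted p = 0.0705). The 20 nearest tested genes around Foxn3 on chromosome 12 had a median log2 fold change of 0.33. It is reported as the highest such median around any of the 44 members, and was chosen after the values were seen. Of these neighbours 2 were called, as many as around Foxm1 (median -0.03) and Foxe1 (median -0.21). Foxj2 was at 3.51 and 3.53 against 2.83 and 2.72 RPKM (log2 fold change -0.37, SE 0.10, adjusted p = 0.133), and its exons overlap Gm4485 on the opposite strand. Foxj1, the motile cilium factor, had 19 and 25 against 24 and 19 counts (log2 fold change -0.48, SE 0.29, adjusted p = 0.378). Of 22 motile cilium genes only 9 were abundant enough to test, and edgeR, DESeq2 and limma-voom called 0 of them, with 1 at an unadjusted p under 0.05 in edgeR and a median log2 fold change of -0.01. The highest of these were Rfx3 (log2 fold change -0.21, SE 0.14), Ccdc39 (0.27, SE 0.15) and Rfx2 (0.07, SE 0.27).

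Of the 18 members that were not tested, 5 had no count in any library, namely Foxb2, Foxe3, Foxi1, Foxi2 and Foxn4. A count of 0 allows up to 3 counts, which is 0.231 to 0.341 CPM in these libraries. The other 13 were Foxb1, Foxd2, Foxd3, Foxd4, Foxe1, Foxi3, Foxl1, Foxl2, Foxn1, Foxo6, Foxr1, Foxr2 and Foxs1, each with at most 11 counts in a library. Foxi3, a factor of pharyngeal and placodal ectoderm, had 8 and 9 control counts against 0 and 6 in Isl1_KO, and the ratio of its summed counts was 3.87 with a counting interval of 1.46 to 12.0. That interval leaves out the spread between clones, and Foxi3 did not pass with DESeq2 (adjusted p = 0.722). Foxd3, which marks pluripotent and neural crest cells, had 1, 1, 3 and 2 counts. For the other 12, Foxd3 included, the counting interval of the ratio covered 1, so no difference was detectable at this depth.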

How the data were processed

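Poly(A) RNA of sorted day 5 CPCs was sequenced from stranded libraries, and the authors mapped reads to mm9 with STAR and used HOMER to count the reads in the exons of RefSeq transcripts, without regard to strand. The deposited counts are whole reads of a transcript, and the deposited RPKM values were made from them by the authors with edgeR. The versions of STAR, HOMER, edgeR and DESeq2 that the authors used are not given in the sources used here. The table's DESeq2 comparison columns (base mean, log2 fold change, standard error, Wald statistic, p and adjusted p) were not used. All columns of per-sample values were matched, so 0 were left out.

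Counts of 1 entry per symbol were tested by quasi-likelihood F tests in edgeR 4.0.16 in R 4.3.3 (TMM factors, filterByExpr, no covariate, two-sided), with Benjamini-Hochberg adjustment and a threshold of 0.05. SE is the fitted log2 fold change divided by the square root of F, and 95% intervals of a log2 fold change are normal. CPM values use TMM-scaled library sizes. The criteria of the study (absolute log2 fold change over 0.58, unadjusted p under 0.05) were applied with DESeq2 1.42.0, and limma 3.58.1 (voom with sample quality weights) was an alternative. Scripts for these fits were tested on simulated data. An exact permutation test on 1 gene could not reach below p = 0.333 with 2 libraries per group, so the tests used error shared across genes. Counting intervals are exact (Clopper-Pearson) and, like floors of 3 counts, cover counting error only, as reads carried no molecular identifiers. Levels of different genes were compared in RPKM only. Positions are from GENCODE vM1 on NCBIM37 (mm9), where all 44 members were placed, and upstream sequences are from RefSeq on GRCm38.p6. Groups follow the sample titles, which say knockout, while the series' design text speaks of a knockdown. The members and the gene lists were chosen with earlier results of these data known. Values in every library are given for members called or at the study's criteria, for the 5 highest by mean RPKM and for the 5 with the largest change, and for list genes called or, where a list had no call, for its 3 highest. Of the genes that these rules select, 1 member and 2 list genes are not reported here, although the counts include them. The alternatives were other size factors, no filter, a filter of 10 counts, DESeq2, limma-voom, the replicate number as a block, all transcript entries, a test against 1.5-fold and leaving out each library.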

Additional observations from a re-analysis of the deposited data

How the results depend on the processing

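Isl1 and the forkhead genes recomputed (those called, at the study's criteria, or among the 5 highest or the 5 largest changes) kept their direction in every alternative that gave them a value, and Foxd1 was among those not tested with at least 10 counts in every library. Other members were not recomputed one by one. Isl1 stayed called, with a log2 fold change between -4.74 and -4.08 when a library was left out. The count of 3 forkhead genes called was also 3, the same genes, with other size factors, without a filter and with all transcript entries, and 2 (Foxc1 and Foxh1) with at least 10 counts in every library. It was 7 with DESeq2, 8 with limma-voom (6.82% of all genes), 5 with the replicate block (Foxf1 and Foxq1 among them, with 3.57% of all genes called) and 0 in a test against 1.5-fold (0.724% of all genes), where 5 had an unadjusted p under 0.05. Leaving out 1 library gave between 0 and 16, with 0 without either control library, 16 without the first Isl1_KO library (49.2% of all genes called) and 14 without the second (32.5%). There the lone library of a group is assumed to vary like the other group. Members at the study's criteria numbered 5 with an adjusted p or at least 10 counts, 6 with the replicate block, 7 with edgeR p-values or all entries, and 3 to 6 without 1 library, 3 being without control replicate 2. The 5 companion genes called became 8 without a filter, 11 with DESeq2, 18 with limma-voom, 6 with the replicate block and 1 against 1.5-fold (Nkx2-5), and 0 to 89 without 1 library. Samples sharing a replicate number did not deviate together (r = 0.0144). The control libraries barely differed (biological coefficient of variation 1.26%), so this value cannot decide whether the numbers pair the samples. Depth limits the 13 members with too few counts to test.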
